A study of Cucumis sativus with 11 samples.

Results

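Among the 20165 gene IDs measured in cucumber leaves, 70 were lowered by salt and stood higher again when silicon was given with the salt. They were chosen from the measured values themselves. On log2(RPKM + 1), where RPKM is the number of reads of a gene relative to its length and to the library's mapped total, the mean of the salt libraries had to lie at least 1 below the control mean, and the salt plus silicon mean at least 0.5 above the salt mean. In addition, the highest of the 3 salt libraries had to lie below the lowest of the 3 control libraries and below the lowest of the 3 salt plus silicon libraries. The silicon libraries had no part in the choice. Leaf RNA of the cultivar JinYou 1 was sequenced in 11 libraries, each from 3 recently expanded leaves combined, of seedlings grown in nutrient solution. The groups were control (no addition, n = 3), salt (75 mM sodium chloride, n = 3), silicon (0.3 mM, given as sodium silicate, n = 2) and salt plus silicon (both, n = 3), all sampled after 3 days. Sodium silicate carries some sodium of its own, and the labels do not say whether the combined leaves of a group came from separate containers, so p-values measure the spread between these samples only.

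Salt in the root medium lowers the water that roots can draw and later loads leaves with sodium and chloride, and growth, photosynthesis and ion transport change early. Silicon is taken up by roots as silicic acid and carried with the transpiration stream to the shoot, where it is laid down in and around cell walls. Cucumber is among the dicots that take up silicon readily, and added silicon is known to ease salt injury in it. The comparison asks which salt-lowered leaf transcripts stand higher when silicon is present.

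The files hold IDs only. Of the 20165 IDs, 0 were found in a reference table of 23999 cucumber genes, so no function could be given to a member and the labelled tissue could not be checked against leaf marker genes. In combined leaves, fewer cells of a type and less RNA per cell cannot be told apart. Depth could be estimated only relative to control 1 and lay between 0.882 and 1.16 of it, and 1711 to 2397 genes were listed at 0 in a library. Libraries were prepared without keeping strand, so reads of a member and of an antisense gene overlapping it are not separated.

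The conditions of the choice narrowed the list in steps. Salt lowered the mean of 1109 genes by at least 1, and in 628 of them every salt library also lay below every control library. Of these 628 salt-lowered genes, 194 had a salt plus silicon mean at least 0.5 above the salt mean, and in 70 of the 194 every salt plus silicon library also lay above every salt library, by any margin. The 70 members were thus 11.1% of the salt-lowered genes, and the other 558 serve below as the nearest comparison. All 70 reached 1 RPKM in at least 2 libraries and so were tested with the other genes. For orientation, every salt library lay below every control library in 9.06% of the 17408 genes tested, and below every salt plus silicon library in 3.87%.

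**Figure D1:**
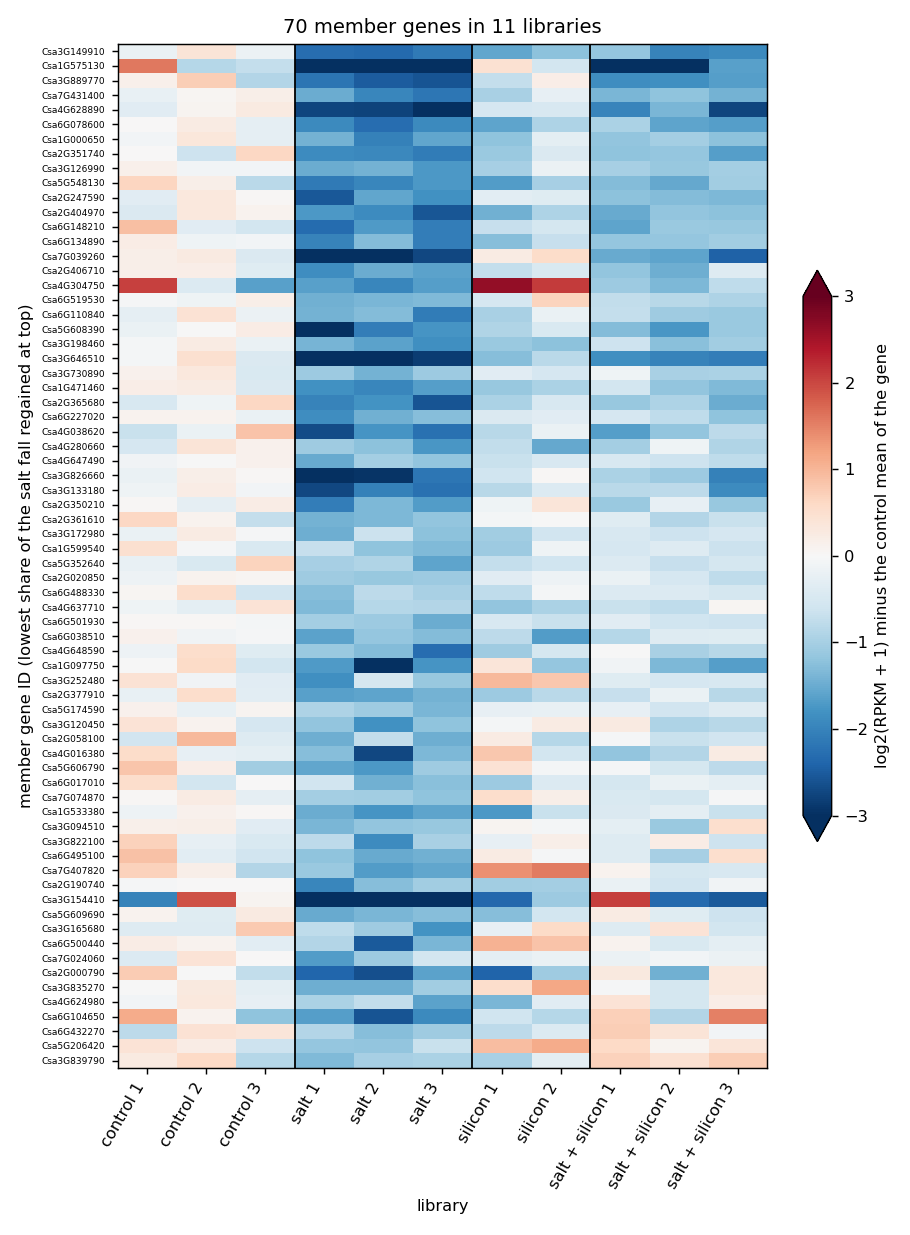
Level of each of the 70 members (rows, by gene ID) in each of the 11 libraries (columns), as log2(RPKM + 1) minus the gene's control mean, with blue below and red above the control mean and colours ending at 3 in either direction. Rows run from the lowest share of the salt fall regained (24.5%, top) to the highest (157%, bottom), and the salt columns are blue throughout, as the choice required.

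The members were moderately expressed genes. Their mean control level ran from 2.16 to 2944 RPKM with a median of 27.9, against 28.6 RPKM in the other salt-lowered genes and 10.8 RPKM over all genes tested. In 20 members the control mean was under 10 RPKM, in 36 it lay from 10 to under 100, and in 14 it was 100 or more. The median member stood at 22.5, 28.9 and 23.6 RPKM in the control libraries, at 6.63, 6.00 and 7.27 in the salt libraries, at 21.9 and 19.5 in the silicon libraries and at 19.1, 13.7 and 14.5 in the salt plus silicon libraries. In sum, the members held 0.888% ± 0.0897 of all RPKM in control (SD, n = 3), 0.284% ± 0.0240 in salt (n = 3), 0.640% ± 0.154 in silicon (n = 2) and 0.515% ± 0.0618 in salt plus silicon (n = 3). On group means the order control, silicon, salt plus silicon, salt held for both quantities. By library it failed for the summed share, where silicon 1 held 0.531% and salt plus silicon 1 held 0.571%. That sum leans on Csa3G826660 and Csa1G599540, with control means of 2944 and 2386 RPKM. The control and salt values and the position of salt plus silicon above salt follow from the choice.

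The fall with salt ranged from -1.002 to -4.79 on the log2(RPKM + 1) scale with a median of -1.55, and it was 2 or more in 18 members and 3 or more in 3. The rise from salt to salt plus silicon ranged from 0.50 to 3.87 with a median of 0.81, and reached 1 in 22 members. Over all genes tested the medians were 0.11 for salt minus control and 0.03 for salt plus silicon minus salt. In the other salt-lowered genes, which missed a condition on the rise, these medians were -1.40 and 0.29. A rise above the median of all genes was thus not limited to the members. These other genes were also chosen for low salt libraries, so their rise is in part built in. Set against the fall, the members' rise regained a median of 52.9% of it. The spread between the salt plus silicon libraries was 7.47 percentage points (SD, n = 3). Taken singly, the 3 salt plus silicon libraries gave 61.2%, 48.9% and 47.7%. The other salt-lowered genes regained a median of 18.7%, which also rests on the salt libraries that chose them. The members' higher share is in part built in, since the choice required their rise. In 30 members under 50% was regained, in 35 it lay from 50% to under 100% (23 under 75% and 12 above), and in 5 the salt plus silicon mean reached or passed the control mean. Every salt plus silicon library still lay below every control library in 36 members, where 9.86% of all genes tested do so, and the groups overlapped in the other 34. The name of a partial return therefore describes 65 of the 70, while those 5 returned in full on the mean.

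**Figure D2:**
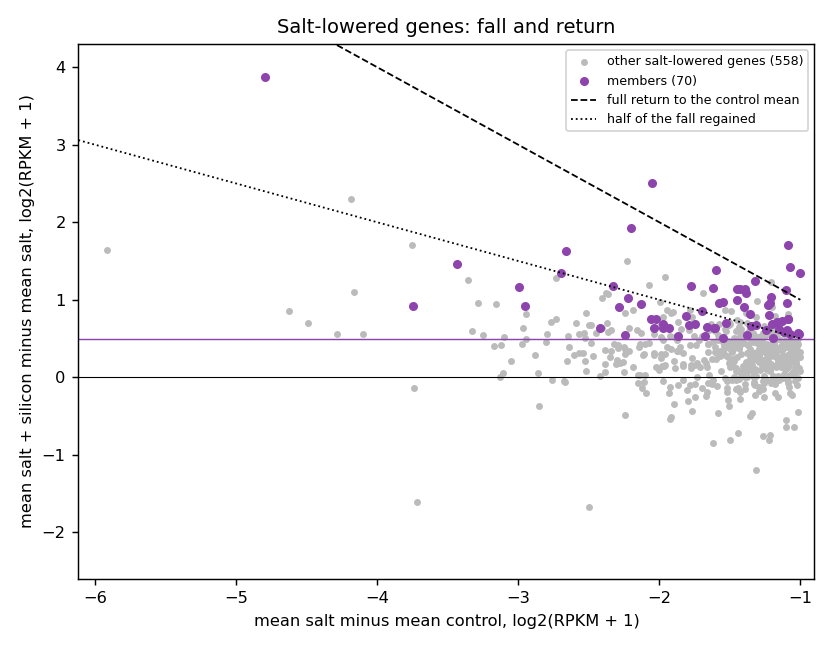
Mean salt minus mean control (horizontal) against mean salt plus silicon minus mean salt (vertical), both on log2(RPKM + 1), for the 70 members and the other 558 salt-lowered genes. The solid purple line is the required rise of 0.5, the dotted line a return by 50% and the dashed line a full return; 5 members lie on or above the dashed line, and grey points above the purple line failed because single libraries overlapped.

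The required gap between the groups was often narrow. Between the lowest salt plus silicon library and the highest salt library it was 0.22 on the log2 scale in the median member, under 0.1 in 16 members and 0.5 or more in 11. Near the limit on the fall, Csa5G206420 (-1.002) and Csa6G488330 (-1.01) were just inside, and Csa2G002000 and Csa3G750910 (-0.997 and -0.988) just outside. Near the limit on the rise, Csa3G126990 and Csa3G730890 (0.503 and 0.512) were just inside, and Csa7G333400 and Csa6G362930 (0.496 and 0.480) just outside. Values on both sides of each limit were close to each other.

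Csa3G154410 had the deepest fall of all members. It was at 5.97, 103 and 28.5 RPKM in the control libraries, listed at 0 in all 3 salt libraries, at 4.41 and 11.96 RPKM in silicon, and at 116, 4.48 and 3.86 RPKM in salt plus silicon. The high mean with salt plus silicon came from 1 library, the other two lying below every control, and the controls themselves were widely spread. Since the salt libraries were at 0, its fall of -4.79 and its rise of 3.87 depend on the added 1 and are no measure of size.

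Csa1G575130 fell from 61.7, 10.5 and 11.8 RPKM in control to 0.901, 0.154 and 0.736 RPKM in salt, and stood at 0.977, 0.928 and 5.82 RPKM in salt plus silicon. Its rise of 0.92 thus rested on salt plus silicon 3, the other two lying just above the highest salt library. In silicon it stood at 27.99 and 13.4 RPKM, among the controls.

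Csa3G646510 gave separate groups. It was at 124, 179 and 94.8 RPKM in control, at 6.97, 10.8 and 17.04 RPKM in salt and at 35.01, 31.3 and 29.6 RPKM in salt plus silicon. The 3 salt plus silicon libraries were close together, above every salt and below every control library, and 42.6% of the fall was regained. In silicon, at 52.6 and 72.6 RPKM, it lay between the control and the salt plus silicon libraries.

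Csa7G039260 differed in its response to silicon alone. It fell from 162, 172 and 105 RPKM in control to 16.1, 14.7 and 20.9 RPKM in salt and stood at 49.8, 47.2 and 26.1 RPKM in salt plus silicon. In silicon it was at 169.5 and 209 RPKM, near the highest control and above it. Salt plus silicon minus silicon was -2.23 ± 0.31 (SE, limma adjusted p = 0.00302), past the threshold of 0.05 in all 19 alternative fits, with adjusted p from 0.00228 to 0.0314.

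Csa4G628890 was at 21.2, 28.9 and 33.2 RPKM in control, 3.19, 3.16 and 1.82 RPKM in salt, 18.9 and 19.4 RPKM in silicon and 6.22, 9.88 and 3.23 RPKM in salt plus silicon. Its salt plus silicon 3 library was hardly above the salt libraries, with a gap of 0.01 on the log2 scale. Salt plus silicon minus silicon was -1.54 ± 0.37 (SE, limma adjusted p = 0.0290), a call lost without either silicon library, without salt plus silicon 1 or 3, with a replicate block and with the 2 groups fitted alone (adjusted p from 0.0162 to 0.160 over the alternatives).

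**Figure D3:**
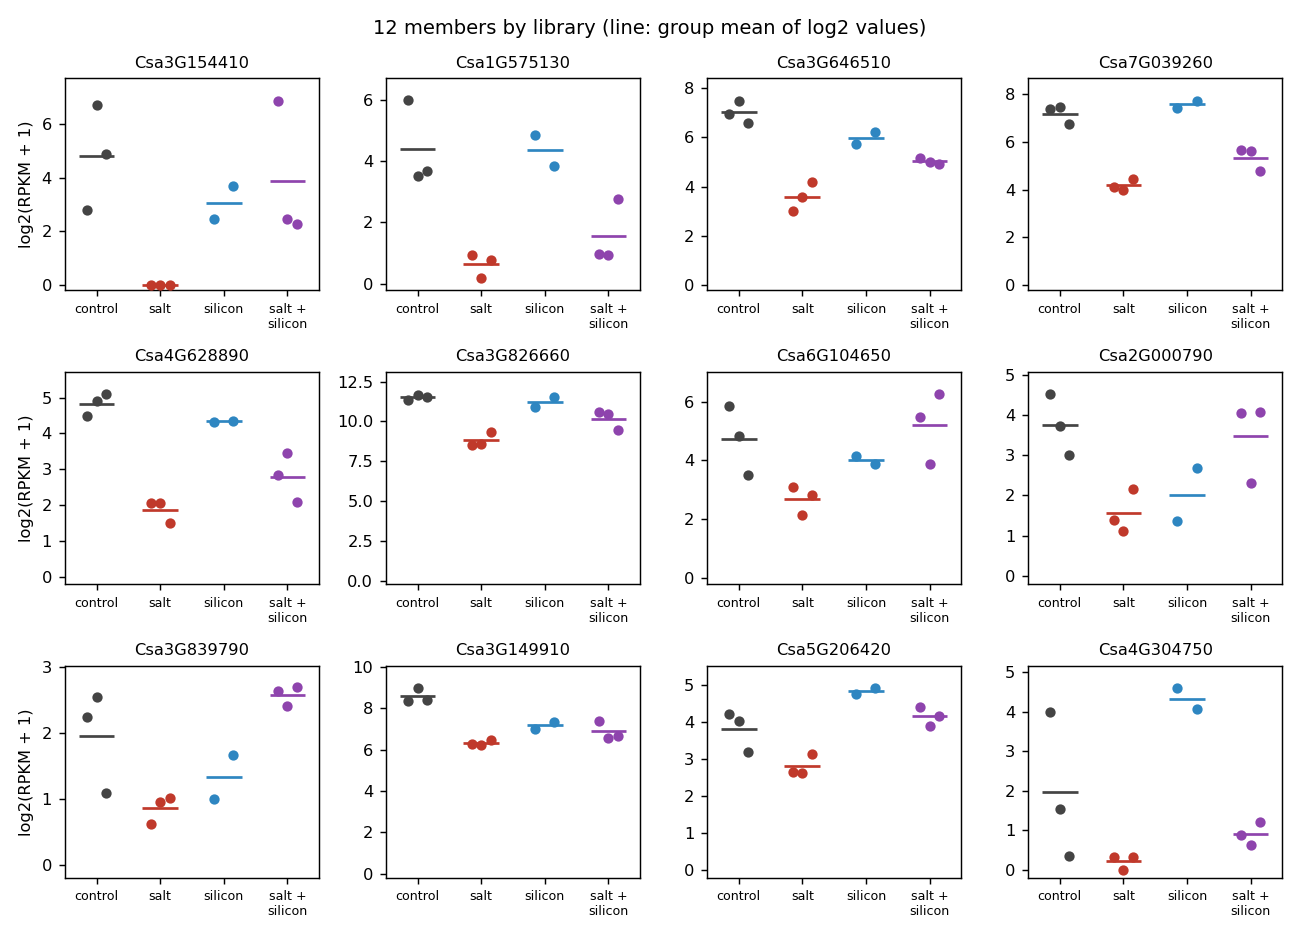
Level of 12 members as log2(RPKM + 1) in each of the 11 libraries (points), with the mean of the log2 values of each group (line). Csa3G646510 shows separate groups, with its salt plus silicon points close together. By contrast, 1 of the 3 salt plus silicon points of Csa3G154410 and of Csa1G575130 lies far above the others.

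Csa3G826660 was by far the most abundant member. It was at 2565, 3285 and 2984 RPKM in control, 368, 383 and 647 RPKM in salt, 1937 and 3004 RPKM in silicon and 1519, 1381 and 712 RPKM in salt plus silicon. Salt libraries lay well below all others except salt plus silicon 3, which stood only slightly above the highest of them. The share of the fall regained was 49.8%.

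Csa1G599540, the next in abundance, moved little by comparison. It was at 3205, 2261 and 1692 RPKM in control, 1429, 995 and 924 RPKM in salt, 1089.7 and 2117 RPKM in silicon and 1624, 1767 and 1474 RPKM in salt plus silicon. Its salt plus silicon libraries overlapped the controls, and silicon 1 lay within the range of the salt libraries.

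Another 4 members were named for a high control level. Csa6G148210 was at 815, 345 and 300.2 RPKM in control, 88.3, 133 and 104 RPKM in salt, 271 and 303 RPKM in silicon and 145, 202 and 200.4 RPKM in salt plus silicon. Csa3G133180 was at 247, 319 and 254 RPKM in control, 40.4, 65.4 and 56.8 RPKM in salt, 153 and 203 RPKM in silicon and 156, 157 and 73.02 RPKM in salt plus silicon. In both, the silicon mean lay between those of control and salt, and every salt plus silicon library stayed below every control.

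In Csa3G198460 and Csa3G149910, silicon alone was also far below control. Csa3G198460 was at 417, 515 and 380.1 RPKM in control, 165, 141 and 121 RPKM in salt, 200.4 and 183 RPKM in silicon and 282, 181 and 211 RPKM in salt plus silicon. Csa3G149910 was at 329, 499 and 336 RPKM in control, 77.4, 74.9 and 86.5 RPKM in salt, 128 and 162 RPKM in silicon and 169, 94.6 and 99.9 RPKM in salt plus silicon. Silicon and salt plus silicon overlapped in both members, below all controls and above all salt libraries.

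By control level, the median share regained was 64.8% in the 20 members under 10 RPKM, 53.9% in the 36 from 10 to under 100 RPKM and 44.2% in the 14 at 100 RPKM or more. The median falls of these groups were -1.30, -1.61 and -1.86, in the same order. Since the required rise allows small shares only in deep falls, the order of the shares is in part built in. Differences of low genes are also compressed on this scale, and the shares were not tested. Csa6G104650 was at 56.9, 27.5 and 10.4 RPKM in control, 7.52, 3.40 and 6.08 RPKM in salt, 16.7 and 13.6 RPKM in silicon and 42.9, 13.6 and 74.9 RPKM in salt plus silicon. Its control and salt plus silicon libraries overlapped widely and each spread several-fold, around a share regained of 122%.

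Csa2G000790 was at 21.9, 12.3 and 7.02 RPKM in control, 1.60, 1.18 and 3.44 RPKM in salt, 1.56 and 5.38 RPKM in silicon and 15.4, 3.98 and 15.8 RPKM in salt plus silicon. In this member silicon alone lay within or near the salt range, while salt plus silicon reached the controls in 2 of 3 libraries. It had the lowest silicon minus control difference of all members, -1.74.

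Csa3G839790 had the highest share regained, 157%. It was at 3.70, 4.84 and 1.13 RPKM in control, 0.539, 0.942 and 1.02 RPKM in salt, 0.983 and 2.16 RPKM in silicon and 5.22, 4.29 and 5.46 RPKM in salt plus silicon. Control 3 was hardly above the salt libraries, and 2 of the 3 salt plus silicon libraries were above the highest control.

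Csa6G432270 was at 6.07, 15.4 and 14.6 RPKM in control, 5.64, 4.02 and 4.82 RPKM in salt, 6.11 and 8.12 RPKM in silicon and 19.3, 15.1 and 10.5 RPKM in salt plus silicon. Control 1 was close to the salt libraries, unlike the other two controls, and the share regained was 133%. Csa1G097750 was at 21.3, 32.7 and 14.3 RPKM in control, 28.1 and 9.12 RPKM in silicon and 20.1, 7.82 and 6.21 RPKM in salt plus silicon. Its salt libraries were at 5.91, 0 and 5.61 RPKM, and the library listed at 0 deepens its fall.

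At the other end, Csa3G149910, Csa1G575130, Csa3G889770 and Csa7G431400 regained the least, 24.5%, 24.6%, 26.3% and 28.4%. Csa3G889770 was at 18.8, 28.97 and 8.72 RPKM in control, 2.94, 2.17 and 1.998 RPKM in salt, 10.02 and 19.6 RPKM in silicon and 3.95, 4.02 and 4.69 RPKM in salt plus silicon. Csa7G431400 was at 18.1, 22.2 and 24.4 RPKM in control, 6.9997, 4.79 and 4.02 RPKM in salt, 10.5 and 17.8 RPKM in silicon and 7.65, 8.70 and 7.33 RPKM in salt plus silicon. Both rises were small beside the distance that remained to the controls, and both members stood higher in silicon than in salt plus silicon.

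The 46 members not named here had falls from -2.28 to -1.02 with a median of -1.40 and rises from 0.53 to 1.39 with a median of 0.77. They regained 31.5% to 102%, with a median of 56.5%. Their control means ran from 2.16 to 221 RPKM and their salt means from 0.350 to 79.8 RPKM. Salt plus silicon means ran from 1.06 to 172 RPKM. Of all 70 members, 7 had a salt library listed at 0, and none had a control, silicon or salt plus silicon library at 0.

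The silicon libraries, which the choice had left free, divided the members. Both silicon libraries lay above every salt library in 59 members, where 22.8% of all genes tested do so, and overlapped them in 11. Against control, both lay below every control library in 30 members, overlapped in 34 and lay above every control in 6, where 11.9% of all genes tested lay below and 30.4% above. The controls were chosen high and the salt libraries low, which lowers silicon minus control and raises silicon minus salt. The other 558 salt-lowered genes share that choice of controls, and among them 41.8% lay below and 15.2% above every control, against 42.9% and 8.57% of the members. The median silicon minus control was -0.58 in the members, -0.50 in the other salt-lowered genes and 0.18 over all genes tested. The median with silicon alone thus lay close to that of the other salt-lowered genes, and no test was made of the difference.

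**Figure D4:**
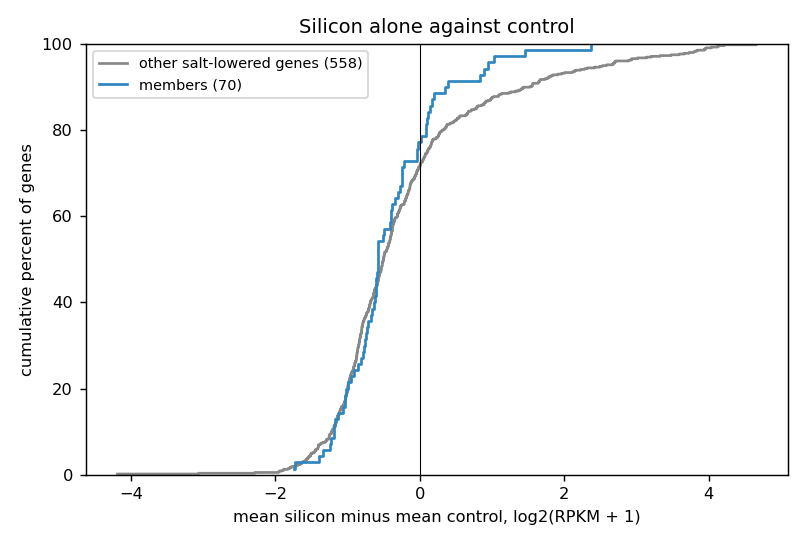
Cumulative percent of genes by mean silicon minus mean control on log2(RPKM + 1), for the 70 members and the other 558 salt-lowered genes. The curves run close together through their medians of -0.58 and -0.50; above 0 that of the other genes reaches further than that of the members, which ends at 2.37.

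In the limma fit across all genes, 9 of 70 members were lower in silicon than in control and 0 higher. Of all genes tested, 9.36% were called, with 0.977% called lower and 8.38% higher. An unadjusted limma p under 0.05 was found in 28 of the 70 members, against 26.2% of all genes tested. The contrast shares its controls with the choice, so the excess of lower calls is in part built in. Csa3G198460 changed by -1.17 ± 0.23 (SE, limma adjusted p = 0.0151), a call lost without control 2 or either silicon library and with the 2 groups fitted alone (adjusted p from 0.0154 to 0.114). Csa3G149910 changed by -1.40 ± 0.28 (limma adjusted p = 0.0172), lost without control 2 or silicon 1 and with the 2 groups fitted alone (adjusted p from 0.0136 to 0.176). The count of 9 was 0 without control 2, 1 without silicon 1, 4 without silicon 2, 5 without control 3 and 5 without salt plus silicon 1. It was 0 with the 2 groups fitted alone, 2 with a replicate block, 14 once the libraries were scaled by median ratios, and 17 once they were quantile normalized.

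The 6 members above every control in silicon had a median silicon minus control of 0.99 and regained a median of 83.0% of the fall, against 58.3% in the 34 overlapping and 47.4% in the 30 below. These classes also differed in control level, with medians of 10.2, 20.8 and 53.0 RPKM, and their median falls were -1.38, -1.39 and -1.61. Class and share both use the same controls, and the required rise of 0.5 allows small shares only in deep falls. Differences in share are thus in part built in, and the part of level in the shares was not tested. Csa4G304750 was at 15.1, 1.92 and 0.269 RPKM in control, 0.257, 0 and 0.246 RPKM in salt, 23.4 and 15.8 RPKM in silicon and 0.841, 0.536 and 1.31 RPKM in salt plus silicon. Control 1 alone came near the silicon libraries, and control 3 was hardly above salt. Csa7G407820 was at 13.3, 8.98 and 3.78 RPKM in control, 3.09, 1.77 and 1.99 RPKM in salt, 21.7 and 24.9 RPKM in silicon and 8.50, 5.10 and 5.30 RPKM in salt plus silicon. Csa5G206420 was at 17.6, 15.3 and 8.06 RPKM in control, 5.29, 5.17 and 7.77 RPKM in salt, 25.7 and 29.2 RPKM in silicon and 20.3, 13.9 and 16.9 RPKM in salt plus silicon. In the last 2, control 3 was the lowest control and silicon stood above everything else.

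Between salt plus silicon and silicon, 5 members were lower with salt and 0 higher, 7.14% of the members, where 9.87% of all genes tested were called 7.26% were called lower and 2.61% higher. That share is close to the background. Besides Csa7G039260 and Csa4G628890, the named genes were Csa4G304750 with -3.43 ± 0.82 (SE, limma adjusted p = 0.0282) and Csa7G407820 with -1.76 ± 0.42 (adjusted p = 0.0276). Both calls were lost without either silicon library and without salt plus silicon 2 or 3, and that of Csa4G304750 also without salt plus silicon 1, with a replicate block and with the smaller pseudocount. Their adjusted p ran from 0.000855 to 0.196 and from 0.00625 to 0.141 over the alternatives. The count of 5 was 2 without either silicon library or without salt plus silicon 1 or 3, and 3 without salt plus silicon 2. Without regard to a test, both silicon libraries lay above every salt plus silicon library in 25 members (25.5% of all genes tested) and below in 6 (21% of all genes tested).

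The contrasts that chose the members, or contain those that did, are given as a description. Salt minus control was called in 50 of 70 members, all lower, where 9.12% of all genes tested were called and 3% were called lower; the count was 33 without control 2 and 21 with the 2 groups fitted alone. Salt plus silicon minus control was called in 18 members, all lower, where 6.33% were called and 1.53% called lower. This count was 11 without control 1 or control 3, 5 without control 2, and 7, 5 and 4 without salt plus silicon 1, 2 and 3. Salt plus silicon minus salt, the step that stands for the return, was called in 0 of 70 members, where 0.0172% of all genes tested were called, and 49 members had an unadjusted limma p under 0.05, against 2.81% of all genes. It was also 0 in each of the 19 alternative fits, by the same tool. The interaction of salt and silicon, which contains that step, was called in 14 members, all positive, where 1.95% of all genes tested were called and 0.184% called positive. For salt plus silicon minus salt, no single member thus passed the threshold after adjustment over all genes. That contrast helped to choose the members, so the absence of calls is a description and no verdict on a member's return. An exact permutation test of 3 libraries against 3, which was not run, cannot give a two-sided p below 0.10. This limit does not apply to the limma fit.

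Because the rise was part of the choice, it was read again in libraries that had not chosen the genes. For each replicate number, the rule was applied to the control, salt and salt plus silicon libraries of the other 2 numbers, and the values were read in the 3 left-out libraries. Without number 1, 144 genes were chosen (52 of them members), with a median rise of 0.82 in the choosing libraries and 0.21 in the left-out ones. Without number 2, 552 genes were chosen (56 members), with 0.79 and -0.26. Without number 3, 222 genes were chosen (56 members), with 0.84 and 0.32. The mean of the 3 left-out medians was 0.09 ± 0.31 (SD, n = 3), smaller than the SD. The 3 gene sets differed, were mostly not members and shared choosing libraries. This SD is therefore no spread between replicates of the members' own rise.

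In the left-out libraries the median return of the chosen genes lay below that of the other salt-lowered genes for numbers 1 and 2 and above it for number 3, with no test of the difference. The 607, 1043 and 707 other genes that salt had lowered in the choosing libraries, without the chosen ones, had left-out medians of 0.22, -0.21 and 0.16, beside 0.21, -0.26 and 0.32 for the chosen ones, and all tested genes had -0.01, -0.07 and 0.17. Salt plus silicon stood above salt in 61.8%, 31.5% and 68.5% of the chosen genes, against 62.9%, 34.5% and 59.4% of the other salt-lowered and 47.4%, 40.6% and 67.1% of all tested genes. The fall with salt had left-out medians of -1.13, -0.05 and -0.70 for numbers 1, 2 and 3, against -0.06, 0.40 and 0.01 over all tested genes. Number 2, which holds control 2, salt 2 and salt plus silicon 2, gave the weakest values of both the fall and the rise. With the choice repeated after median-of-ratios scaling, its left-out fall was -0.41 and its rise -0.22. After quantile normalization they were -0.34 and -0.24. The weak fall for number 2 thus depended in part on the scaling.

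**Figure D5:**
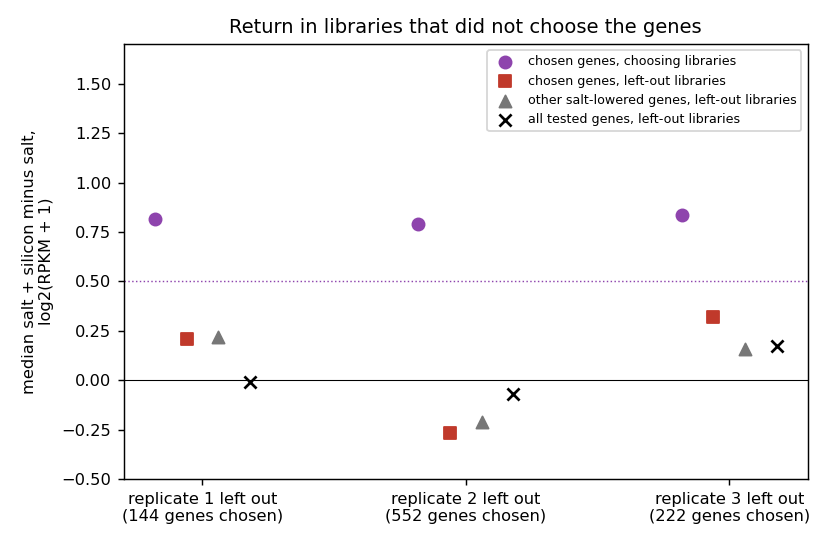
Median salt plus silicon minus salt on log2(RPKM + 1) when the libraries of 1 replicate number are left out of the choice, for the chosen genes in the choosing libraries (circles), the chosen genes in the left-out libraries (squares), the other salt-lowered genes (triangles) and all tested genes (crosses) in the left-out libraries. Circles lie between 0.79 and 0.84, squares between -0.26 and 0.32 and triangles between -0.21 and 0.22; the dotted line is the required 0.5.

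The number of genes chosen depended on single libraries, and the number added was largest without salt 2. Without salt 2 the rule chose 500 genes, 62 of them members, and in 426 of the 438 added genes salt 2 lay at or above the lowest salt plus silicon library. Salt 2 lay at or above the lowest control in 277 of them. The rule chose 147 genes without salt 1, 109 without salt 3 and 145 without salt plus silicon 3, but 68, 71 and 92 without control 1, 2 and 3, and 74 and 104 without salt plus silicon 1 and 2. With fewer libraries the conditions on overlap are easier to meet, so larger numbers are built in. Of the 70 members, between 61 and 66 were chosen again in each of these 9 cases.

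Salt plus silicon 1 was the highest library of its group in 34 members, against 17 for salt plus silicon 2 and 19 for salt plus silicon 3, and it was the lowest in 9, against 30 and 31 for these. Among the controls, control 2 was the highest in 35 members and control 3 the lowest in 36. Over all genes tested, the median deviation of control 2 from its group was -0.12 and that of control 3 -0.01, while over the members these deviations were 0.12 and -0.22. The mean pairwise correlation of the members' deviations from their group means was 0.08 over 11 libraries, against 0.13 in the other salt-lowered genes and 0.08 over all tested genes, values that share libraries and scaling.

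By the naming of these IDs the digit after Csa is the chromosome, and members were found on all 7 chromosomes. Chromosome 3 held 17 members (24.3%, against 20.8% of all listed genes), chromosome 6 held 14 (20% against 16.6%), chromosome 2 held 12 (17.1% against 12.4%) and chromosome 1 held 6 (8.57% against 14.5%). No members lay within 5 rows of each other in the list of IDs, so they formed no runs of neighbours.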

How the data were processed

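Leaf RNA was measured in 11 libraries. The authors deposited 1 RPKM value per gene and library, per the file headers and names. TopHat2 was among the tools, per the submitters' processing notes; the sources used here give neither its version and settings nor the counter, build and annotation. No counts were used, and so the depth in reads is unknown, with no interval for counting error; relative depth was estimated from values under 0.2 RPKM. Values were transformed to log2(RPKM + 1), a scale that understates changes of low genes. The 17408 genes that reached 1 RPKM in 2 or more libraries entered a limma 3.58.1 fit (R 4.3.3) with 4 group means, a mean-variance trend and 7 residual degrees of freedom. All tests are two-sided at 0.05 after Benjamini-Hochberg adjustment over the 17408 genes. The fit was tested on simulated data with added log2 changes of 2 and 4 only, and without the interaction. Smaller changes, such as the members' median rise, were not simulated. Other steps used Python 3.11.15, pandas 2.3.3, numpy 2.4.6 and matplotlib 3.10.9.

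The members, the groups compared and the tests were chosen with earlier results of these data known. Of the members, 24 are named by rule: those with the 6 largest falls, the 6 largest rises and the 6 highest control levels, the 4 lowest and the 4 highest shares regained, the 3 lowest and the 3 highest differences of silicon from control, and the 2 just inside each limit. Alternatives were a pseudocount of 0.1, other filters, quantile normalization, median-of-ratios scaling, robust moderation, a replicate block, fits of only the groups compared and fits without each library in turn. The interaction test and its alternatives were added after the values had been seen. At most 1 value above 0 was identical between 2 libraries, and all 11 were kept as separate samples. No sequence is printed, since the IDs matched no reference entry.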

Additional observations from a re-analysis of the deposited data

Results flagged for a closer look

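The effect of silicon with salt differed from its effect without salt, by the interaction term across all 4 groups, in 14 of 70 members, all with a positive term, where 1.95% of all genes tested were called and 0.184% were called positive (limma, adjusted p under 0.05). The term contains the rise that chose the members and, with opposite sign, a difference from the controls that were chosen high, so a positive sign is largely built in and the count is no support for the members. It fell to 7 without control 3, 5 without silicon 2, 3 without salt 3 or salt plus silicon 2, 2 without salt 1 or salt plus silicon 3, 1 without silicon 1 and 0 without control 2 or salt plus silicon 1.

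Of the named genes, Csa3G646510 had a log2 interaction of 2.50 ± 0.47 (SE; adjusted p = 0.0337 by limma, with 0.0251 to 0.176 over the alternatives), lost in 8 of 18 alternative fits. Csa3G198460 had 1.81 ± 0.30 (adjusted p = 0.0226, with 0.0156 to 0.102), lost in 6 of 18. Csa3G149910 had 1.95 ± 0.37 (adjusted p = 0.0354, with 0.0204 to 0.183), lost in 11 of 18. All 3 calls were lost without control 2, without silicon 1 or silicon 2 and without salt plus silicon 1 or 3. In each of these members both silicon libraries lay below every control library. Every salt plus silicon library lay above every salt library, as the choice required of all members.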

How the results depend on the processing

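The rule chose 99 genes with a pseudocount of 0.1 (all 70 members among them), 69 after median-of-ratios scaling (54 shared) and 70 after quantile normalization (56 shared). It chose 37 with a required fall of 1.5, 22 with a required rise of 1 and 354 with no condition on overlap, and between 68 and 500 with 1 library left out. Calls for silicon minus control were 14 after median-of-ratios scaling, 17 after quantile normalization, 2 with a replicate block and 0 with the compared groups alone, and 0 to 11 with 1 library left out. Calls for salt plus silicon minus silicon were 3 with a pseudocount of 0.1, 2 with a replicate block, 9 with the compared groups alone and 2 to 7 with 1 library left out. Calls for salt minus control were 21 with the compared groups alone and 33 to 51 with 1 library left out, and those for salt plus silicon minus control 10 and 4 to 19. Calls for the interaction were 7 with a pseudocount of 0.1, 8 with no filter, 5 with a replicate block and 0 to 18 with 1 library left out. Deviations of same-numbered libraries from their group means correlated by over 0.1 in 5 of 15 pairs (correlations from -0.20 to 0.16). The labels do not say that the numbers pair samples, and correlations this weak cannot decide it. The median share regained lay between 48.4% and 55.0% with 1 library left out and the members kept, a range that the choice on these same libraries limits. The median silicon minus control was -0.80 after quantile normalization and lay from -0.72 to -0.42 with 1 library left out. The left-out rise was 0.04 with a pseudocount of 0.1, 0.05 after either scaling. The causes were not tested.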
